A study of Mus musculus with 7 samples.

Results

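Transcripts of the core genes of transforming growth factor beta (TGF-beta) signalling were counted in C3H10T1/2, a mesenchymal cell line of the mouse, with and without purmorphamine, a small-molecule agonist of the Hedgehog receptor component Smo. The genes were chosen by symbol, with earlier results of these data known. They were the ligands Tgfb1, Tgfb2 and Tgfb3, the receptors Tgfbr1, Tgfbr2 and Tgfbr3, and the latent TGF-beta binding proteins Ltbp1, Ltbp2 and Ltbp3. All 9 were found among the 18468 genes of the table, and all 9 passed the filter on low counts. Purmorphamine was given at 2 μM for 48 h (n = 4 libraries, replicates 5 to 8), and the control cells received the solvent, 0.02% DMSO, for as long (n = 3 libraries, replicates 2 to 4). Both groups were of a single cell line without introduced genes, had been deprived of serum for 12 h before treatment and remained without serum throughout. The sources used here do not say whether the libraries came from separate cultures, so the p-values measure the spread between these libraries, which may be technical. The values given are reads per gene, counted by the authors on the sense strand after the libraries had been resampled to equal size. Fold changes of single genes, unless another scaling is named, were estimated after scaling for library composition. They therefore differ from ratios of the mean reads.

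TGF-beta is secreted by many mesenchymal cells in a latent form, in which the mature ligand stays bound to its own propeptide, and that complex is tethered to the extracellular matrix by a latent TGF-beta binding protein. Proteases, integrins or thrombospondin release the ligand, which is then recognised by a type II receptor that recruits and phosphorylates the type I receptor, and the type I receptor phosphorylates Smad2 and Smad3. In mesenchymal progenitors the pathway is known for driving matrix production, growth arrest and contractile gene expression.

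With purmorphamine, members of the same family moved differently. Among the ligands, Tgfb2 fell to 0.682 of its DMSO level and Tgfb3 rose 1.44-fold. Among the receptors, Tgfbr3 rose 1.34-fold. Among the latent binding proteins, Ltbp1 fell to 0.387 of its DMSO level, and this was the only one of the 9 genes to change by at least 1.5-fold. At the study's threshold, a Benjamini-Hochberg adjusted p under 0.2, and by the quasi-likelihood test of edgeR, 4 of the 9 genes were higher with purmorphamine (Tgfb3, Tgfbr3, Tgfbr2 and Ltbp2), 3 were lower (Tgfb2, Ltbp1 and Ltbp3) and 2 were not called (Tgfb1 and Tgfbr1). Calls were common in these data, however, since 62.5% of the 12388 genes tested passed the same threshold, with 31.4% of the genes tested higher and 31.1% lower. Requiring a change of 1.5-fold as well left 0 of the 9 genes higher and 1 lower, against 7.89% and 7.56% of all genes, and an adjusted p under 0.05 left 2 higher, against 23.2%, and 3 lower, against 23.6%. The median log2 fold change of the 9 genes was 0.012, and that of all genes tested was 0.0038. The deposited reads of the groups did not overlap for 6 of the 9 genes, against 49.5% of all genes tested, with 3 higher (29.1% of all genes) and 3 lower (20.4%). RNA was taken from whole cultures, so that fewer cells expressing a gene and less RNA per cell cannot be told apart.

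**Figure D1:**
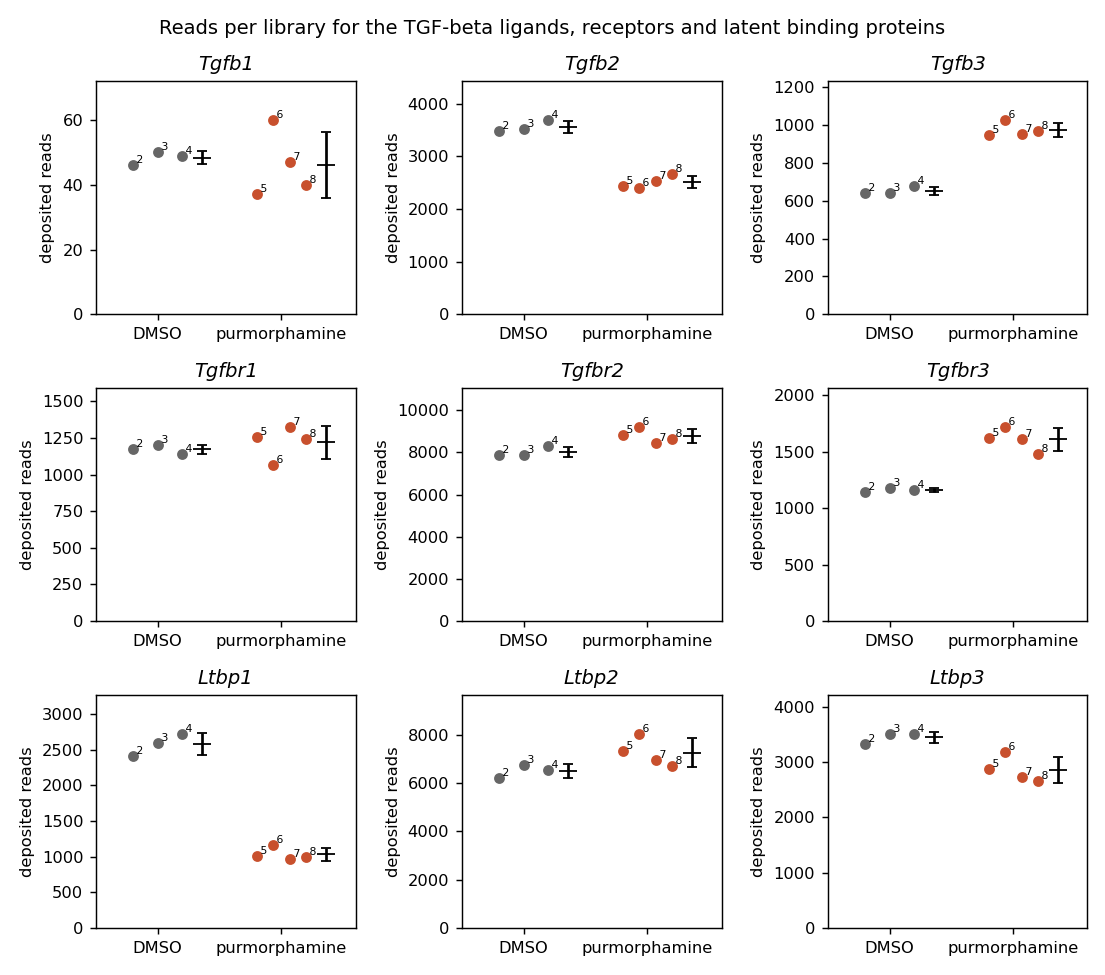
Deposited reads (vertical axes, each starting at 0) of the 9 genes in the 3 DMSO libraries (grey) and the 4 purmorphamine libraries (orange), each point 1 library with its replicate number, and the black mark with bars the mean ± SD of its group. The groups are far apart for Ltbp1 (2414 to 2729 against 962 to 1169 reads), separate for Tgfb2, Tgfb3 and Tgfbr3, and overlap for Tgfb1, Tgfbr1 and Ltbp2.

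Of the ligands, Tgfb2, which encodes TGF-beta2 (ENSMUSG00000039239, minus strand of chromosome 1 from 186622792 to 186705989 in GRCm38), had 3480, 3518 and 3692 reads with DMSO and 2430, 2405, 2541 and 2660 with purmorphamine. No purmorphamine library reached the lowest DMSO library. Mean reads were 3563 ± 113 (SD, n = 3) with DMSO and 2509 ± 117 (SD, n = 4) with purmorphamine, and the log2 fold change was -0.55 (standard error, SE, 0.0486, adjusted p = 5.96e-08 from edgeR). An exact permutation test of this gene alone (two-sided) gave p = 0.0286, the smallest that 3 libraries against 4 allow. Tgfb3, which encodes TGF-beta3 (ENSMUSG00000021253, chromosome 12 from 86056745 to 86079041, minus strand), went the other way. It had 639, 644 and 676 reads with DMSO and 947, 1028, 952 and 968 with purmorphamine, again without overlap. The means were 653 ± 20.1 and 974 ± 37.3 reads, and the log2 fold change was 0.53 (SE 0.0541, adjusted p = 4.16e-07 from edgeR), with the same exact p of 0.0286. Tgfb3 overlaps Ttll5 on the opposite strand, which counting on the sense strand keeps apart.

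Tgfb1, which encodes TGF-beta1 (ENSMUSG00000002603, chromosome 7 from 25687002 to 25705077, plus strand), was by far the least abundant of the 9 genes. It had 46, 50 and 49 reads with DMSO and 37, 60, 47 and 40 with purmorphamine, so that the DMSO values lay inside the range of the purmorphamine values. The log2 fold change was -0.12 (95% interval from -0.50 to 0.27, adjusted p = 0.627 from edgeR). With single libraries left out it ran from -0.26 (without purmorphamine replicate 6) to -0.019 (without purmorphamine replicate 5), with no call. At this depth the data do not settle whether Tgfb1 changed, since the 95% interval holds falls as large as -0.50 and rises as large as 0.27.

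The promoters of Tgfb2 and Ltbp1 are shown because these genes fell most among the 9. Each sequence is the 250 bases before the transcription start in RefSeq (GRCm38.p6), read 5′ to 3′ on the strand of the gene, with the letters found in a search for short motifs in capitals. Ltbp1 has 2 starts in RefSeq, and the reads per gene do not separate the transcripts that begin at them.
Tgfb2, chr1:186705990-186706239, minus strand: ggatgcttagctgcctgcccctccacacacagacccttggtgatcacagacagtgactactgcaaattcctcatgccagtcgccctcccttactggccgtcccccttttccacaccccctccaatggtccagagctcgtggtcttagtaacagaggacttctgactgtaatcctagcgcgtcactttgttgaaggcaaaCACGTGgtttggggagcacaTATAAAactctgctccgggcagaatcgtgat
Ltbp1, first start, chr17:75005279-75005528, plus strand: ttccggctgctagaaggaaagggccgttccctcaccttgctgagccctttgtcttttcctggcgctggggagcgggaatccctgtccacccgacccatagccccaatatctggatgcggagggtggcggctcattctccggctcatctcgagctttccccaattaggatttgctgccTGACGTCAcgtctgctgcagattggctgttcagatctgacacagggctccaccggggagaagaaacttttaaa
Ltbp1, second start, chr17:75178531-75178780, plus strand: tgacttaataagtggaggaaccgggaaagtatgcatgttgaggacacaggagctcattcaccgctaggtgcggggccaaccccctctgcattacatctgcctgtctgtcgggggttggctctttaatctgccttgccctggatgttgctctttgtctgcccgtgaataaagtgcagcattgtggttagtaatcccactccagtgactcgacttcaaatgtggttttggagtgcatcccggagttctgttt
In the Tgfb2 promoter the first capitals mark the E-box CACGTG, which lies from 51 to 46 bases before the start. The second capitals, from 31 to 26 bases before it, mark the core promoter element TATAAA. At the first start of Ltbp1 they mark TGACGTCA, the cAMP response element, from 73 to 66 bases before the start. The second start of Ltbp1 held none of the motifs searched. Both strands were searched, and CACGTG was found in 6.02% of all 32851 promoters of this length, TATAAA in 12.4% and TGACGTCA in 1.55%. GACCACCCA, the motif of Gli factors, was found in 0.225% of all promoters, GTCTAGAC, a Smad motif, in 0.167% and TGANTCA, the AP-1 motif, in 6.75%, and none of these was in the 9 promoters listed for 7 of the genes. The motifs were chosen after the sequences had been seen, no match overlapped another, and a match describes letters, not a bound site.

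Of the receptors, Tgfbr3, which encodes betaglycan, a co-receptor that presents TGF-beta2 to the type II receptor (ENSMUSG00000029287, minus strand of chromosome 5 from 107106570 to 107289629), had 1140, 1181 and 1160 reads with DMSO and 1621, 1722, 1615 and 1479 with purmorphamine. All 4 purmorphamine libraries were above the DMSO libraries. The means were 1160 ± 20.5 and 1609 ± 99.7 reads, and the log2 fold change was 0.42 (SE 0.0537, adjusted p = 5.40e-06 from edgeR, exact permutation p = 0.0286). The span of Tgfbr3 overlaps Gm43422, Gm43423 and Gm42900 on the same strand, which the strand of a read does not tell apart.

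The receptors that carry the kinase activity moved little. Tgfbr2, the type II receptor (ENSMUSG00000032440, minus strand of chromosome 9 from 116084293 to 116175360), had 7893, 7851 and 8277 reads with DMSO and 8812, 9213, 8424 and 8630 with purmorphamine. The deposited reads of its groups did not overlap, but after TMM scaling, which corrects for differences in library composition, they did. Its log2 fold change was 0.08 (95% interval from -0.013 to 0.18, adjusted p = 0.148 from edgeR), and the exact permutation p was 0.114. The call at 0.2 was lost without DMSO replicate 3 (log2 fold change 0.066, adjusted p = 0.370) and without DMSO replicate 2 (0.078, adjusted p = 0.305). Tgfbr1, the type I receptor also called ALK5 (ENSMUSG00000007613, chromosome 4 from 47353222 to 47414931, plus strand), had 1177, 1202 and 1139 reads with DMSO and 1257, 1063, 1327 and 1240 with purmorphamine. Its purmorphamine libraries lay on both sides of the DMSO libraries, with a log2 fold change of 0.012 (95% interval from -0.13 to 0.15, adjusted p = 0.898 from edgeR). Without purmorphamine replicate 6, the lowest of the libraries, it was called higher (0.084, adjusted p = 0.175 from edgeR), and it was below 0 without purmorphamine replicate 7 (-0.026) or DMSO replicate 4 (-0.0017).

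Of the latent binding proteins, Ltbp1 (ENSMUSG00000001870, chromosome 17 from 75005568 to 75392512, plus strand), which anchors latent TGF-beta in the matrix, fell most. It had 2414, 2601 and 2729 reads with DMSO and 1010, 1169, 962 and 991 with purmorphamine. The highest purmorphamine value was well below the lowest DMSO value. The means were 2581 ± 158 and 1033 ± 92.8 reads. The log2 fold change was -1.37 (SE 0.0620, adjusted p = 1.24e-11 from edgeR), and the 95% interval of the fold change was from 0.354 to 0.424. Of the 3854 genes called lower, whose median log2 fold change was -0.30, 7.11% fell by more than Ltbp1. The span of Ltbp1 overlaps the processed pseudogene Gm6276 on the same strand, which the strand of a read does not tell apart.

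Ltbp3 (ENSMUSG00000024940, chromosome 19 from 5740904 to 5758532, plus strand), which also binds latent TGF-beta, fell by less. It had 3328, 3495 and 3512 reads with DMSO and 2863, 3182, 2732 and 2655 with purmorphamine, without overlap. The means were 3445 ± 102 and 2858 ± 232 reads, and the log2 fold change was -0.32 (SE 0.0560, adjusted p = 0.000178 from edgeR, exact permutation p = 0.0571). Ltbp2 (ENSMUSG00000002020, chromosome 12 from 84783212 to 84876532, minus strand), which unlike the others is known for binding fibrillin and elastic fibre proteins rather than latent TGF-beta, did not fall. Its reads were 6222, 6771 and 6555 with DMSO and 7337, 8065, 6962 and 6707 with purmorphamine. The groups overlapped, and the log2 fold change was 0.11 (95% interval from -0.011 to 0.23, adjusted p = 0.128 from edgeR, exact permutation p = 0.229). Its call at 0.2 was lost without DMSO replicate 2 (0.082, adjusted p = 0.361) and without purmorphamine replicate 6 (0.067, adjusted p = 0.254). Ltbp2 lies 1180 kb from Tgfb3 on chromosome 12 and overlaps the antisense gene D030025P21Rik, and the reads counted were those on the sense strand.

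**Figure D2:**
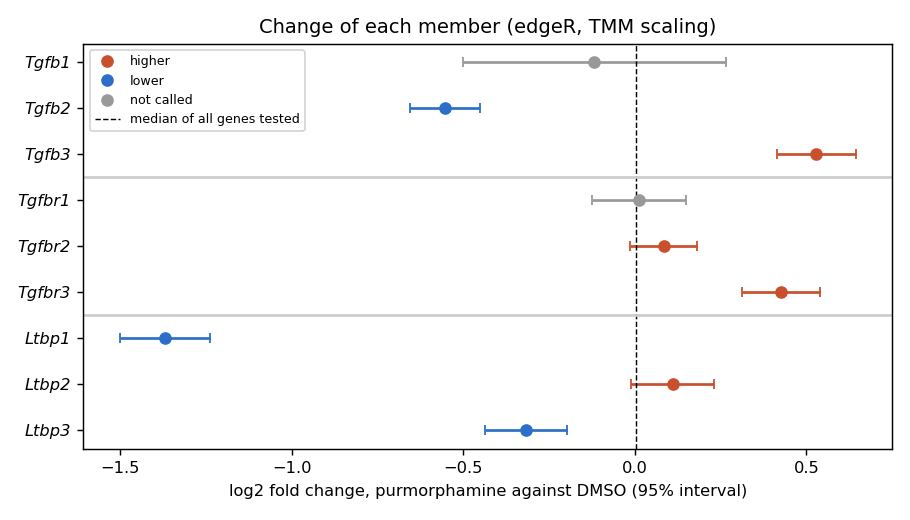
Log2 fold change with purmorphamine against DMSO (horizontal axis) for each of the 9 genes, with its 95% interval, from edgeR with TMM scaling. The dashed line is the median of all genes tested (0.0038), and colours give the call at an adjusted p under 0.2. Ltbp1 at -1.37 is farthest from 0, the intervals of Tgfb2 (-0.55), Ltbp3 (-0.32), Tgfbr3 (0.42) and Tgfb3 (0.53) do not reach 0, and those of Tgfbr2 and Ltbp2, which were called higher, do.

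By deposited reads, purmorphamine replicate 6 stood at the edge of its group for each of the 9 genes. It was the highest of the 4 purmorphamine libraries for 7 of them (Tgfb1, Tgfb3, Tgfbr2, Tgfbr3 and the 3 Ltbp genes) and the lowest for the other 2, Tgfb2 and Tgfbr1. The share of all genes for which this library was the highest or the lowest is not given here, so this need not be particular to the 9. Without replicate 6, the calls of Tgfb2, Tgfb3, Tgfbr3, Ltbp1 and Ltbp3 held with the same direction. Tgfbr2 was then at 0.070 (adjusted p = 0.193 from edgeR), and the values of Tgfbr1 and Ltbp2 without this library are given above.

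Levels of different genes were compared as TMM-scaled reads per kb of exon. With DMSO the order of levels was Tgfbr2 (997 ± 32.7), Ltbp2 (811 ± 32.5), Tgfb2 (627 ± 21.7), Ltbp3 (387 ± 11.3), Ltbp1 (246 ± 15.4), Tgfb3 (197 ± 6.63), Tgfbr1 (183 ± 4.22), Tgfbr3 (181 ± 2.71) and Tgfb1 (9.77 ± 0.403). Only the ranges of Tgfbr1 and Tgfbr3 overlapped among neighbours in this order. With purmorphamine the order was Tgfbr2 (1056 ± 35.9), Ltbp2 (876 ± 68.8), Tgfb2 (427 ± 20.4), Ltbp3 (311 ± 24.4), Tgfb3 (284 ± 9.87), Tgfbr3 (242 ± 14.9), Tgfbr1 (184 ± 17.8), Ltbp1 (95.3 ± 8.18) and Tgfb1 (9.0 ± 1.98), and only Ltbp3 and Tgfb3 overlapped. Ltbp1 thus moved from the fifth place to the eighth.

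These levels give the makeup of each family, as a description. Tgfb2 made up 75.2% of the ligand level per kb with DMSO and 59.3% with purmorphamine, while Tgfb3 made up 23.6% and 39.4%, and Tgfb1 1.17% and 1.25%. The summed level of the ligands was 833 ± 28.4 reads per kb with DMSO and 720 ± 18.3 with purmorphamine. Tgfbr2 was 73.3% and 71.2% of the receptor level and Tgfbr3 13.3% and 16.3%. Among the latent binding proteins the share of Ltbp1 was 17.0% with DMSO and 7.43% with purmorphamine, while that of Ltbp2 was 56.2% and 68.3% and that of Ltbp3 26.8% and 24.2%. The shares depend on the length used: with the longest coding transcript in place of all exons, a choice made after the values had been seen, Ltbp1 was 19.2% and 8.70% of its family, Tgfb2 76.4% and 61.3% of the ligands and Tgfb1 2.44% and 2.64%, and Ltbp1 again held the fifth and the eighth place. Other places changed with that length. Ltbp3 (543 reads per kb) then lay above Tgfb2 (484) with purmorphamine, and Tgfbr1 (208) above Tgfb3 (197) with DMSO. The DMSO levels of Ltbp1 (394), Ltbp3 (676) and Tgfb1 (22.6) were over 1.5 times those by merged exons.

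**Figure D3:**
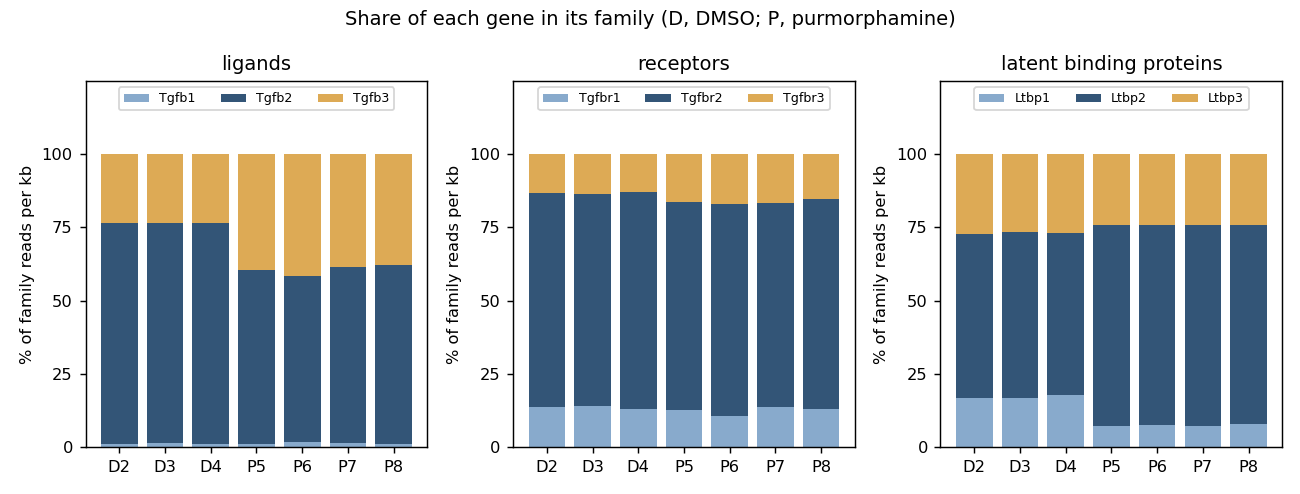
Share of each gene in the reads per kb of its family (vertical axes, %) in the 3 DMSO libraries (D2 to D4) and the 4 purmorphamine libraries (P5 to P8), with 1 stacked bar per library. The Tgfb3 share of the ligands is larger, the Ltbp1 share of the latent binding proteins smaller and the Ltbp2 share larger in every purmorphamine library than in any DMSO library.

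Ratios within a family were tested in each library, since they do not depend on the scaling of the libraries. The ratio of Ltbp2 to Ltbp1 reads was from 2.40 to 2.60 with DMSO and from 6.77 to 7.26 with purmorphamine, a 2.78-fold difference (exact permutation test, two-sided, p = 0.0286, 0.0571 adjusted over the 6 ratios). The ratio of Ltbp3 to Ltbp1 went from between 1.29 and 1.38 to between 2.68 and 2.84, a 2.07-fold difference with the same p-values. Tgfbr3 rose 1.33-fold relative to Tgfbr1 (p = 0.0286 in the exact test, adjusted 0.0571). For Tgfbr2 relative to Tgfbr1 the groups overlapped (exact p = 0.657), and the log2 difference of 0.076 was -0.013 without purmorphamine replicate 6. Relative to Tgfb1, Tgfb3 was 1.59-fold higher (exact p = 0.0571, adjusted 0.0857) and Tgfb2 was at 0.751 of its DMSO ratio (exact p = 0.0857, adjusted 0.103). The log2 difference of Tgfb2 to Tgfb1, -0.41, was -0.26 without purmorphamine replicate 6. Both ratios rest on the few reads of Tgfb1, from 37 to 60 per library. Their log2 SDs were 0.26 (Tgfb3) and 0.33 (Tgfb2) with purmorphamine, against 0.059 and 0.058 with DMSO. The ratio of Tgfb3 to Tgfb2, chosen after the values had been seen and not tested, was 0.184, 0.183 and 0.183 with DMSO and 0.390, 0.427, 0.375 and 0.364 with purmorphamine.

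The other genes of the pathway were described in 5 lists by role. Beyond the genes that the naming rule covers, genes are named as examples or to complete a count, and were chosen after their values had been seen. Of 13 genes tested for the latent complex and its activation, 5 were higher, 6 were lower and 2 were not called (Ltbp4 and Itgav). Of all genes tested, 31.4% were higher and 31.1% lower. The list median was -0.06, against 0.0038 for all genes tested. Fbn2, encoding the microfibril protein fibrillin-2 to which latent binding proteins attach, rose from 1302, 1422 and 1439 reads to 6190, 6211, 6358 and 5442 (log2 fold change 2.08, adjusted p = 9.96e-14 from edgeR), far above the DMSO range. Fbn1, encoding fibrillin-1, rose as well (1.23). Lrrc32, encoding GARP, a membrane protein that holds latent TGF-beta on the cell surface, was low, with 14, 16 and 28 reads, and rose to 124, 111, 83 and 75 (2.29, adjusted p = 7.40e-07 from edgeR). Thbs1, encoding thrombospondin-1, an activator of latent TGF-beta, fell from 33122, 34565 and 34469 reads to 15193, 12788, 14421 and 16408 (-1.26, adjusted p = 7.00e-11 from edgeR). The protein products of Itgb3, whose integrin binds latent TGF-beta, and of Mmp2 and Mmp14, which are matrix proteases, are counted among the activators too, and the 3 genes fell (-0.99, -0.71 and -0.30). Itgb8 (-0.32) and Furin (-0.48), encoding the protease that cleaves the propeptide, also fell, whereas Itgb5 (0.18) and Bmp1 (0.31) rose.

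Of the accessory receptors and binding proteins, 11 were tested and passed the threshold, which 62.5% of all genes did. Of the 11, 6 were higher and 5 lower (31.4% and 31.1% of all genes), with a median of 0.098. Fmod, encoding fibromodulin, a matrix proteoglycan that binds TGF-beta, had 899, 941 and 994 reads with DMSO and 148, 112, 138 and 199 with purmorphamine (log2 fold change -2.71, adjusted p = 3.45e-12 from edgeR). Bambi, encoding a decoy receptor without a kinase, fell from 416, 401 and 439 reads to 130, 112, 128 and 133 (-1.78, adjusted p = 2.55e-11). Vasn, encoding vasorin, which binds TGF-beta, fell from 1138, 1170 and 1267 to 632, 726, 544 and 612 (-0.97, adjusted p = 9.53e-09). In none of the 3, which were named for the size of their changes, did the groups overlap. Of all genes tested, 49.5% did not overlap, and 20.4% did so with purmorphamine lower. The other 2 that fell were Bgn (-0.43) and Fkbp1a (-0.11), while Nrp1 (0.87), Dcn (0.50), Tgfbrap1 (0.34), Eng (0.28), Cd109 (0.26) and Zfyve9 (0.098) rose. Fkbp1a lost its call when library totals alone were used for scaling, and 4 genes were then lower. The call of Zfyve9 was weak (adjusted p = 0.1285 from edgeR, exact permutation p = 0.171). With DESeq2, or without DMSO replicate 2 or 3 or purmorphamine replicate 8, 5 genes were higher. Without DMSO replicate 4, 4 genes were lower.

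Of the 14 Smads and regulators of Smads, 7 were higher, 5 were lower and 2, Smad2 and Usp15, were not called, with a median of 0.05. The shares over all genes tested were 31.4% higher and 31.1% lower. Smad3, one of the Smads phosphorylated by the type I receptor, rose from 2323, 2418 and 2335 reads to 3740, 3866, 3764 and 3711 (log2 fold change 0.63, adjusted p = 2.69e-09 from edgeR). Pmepa1 and Skil, which encode inhibitors of Smad signalling and are themselves induced by TGF-beta, rose by 0.45 (adjusted p = 1.99e-05) and 0.39 (adjusted p = 0.000810). Pmepa1 had 415, 440 and 401 reads with DMSO and 578, 572, 585 and 634 with purmorphamine, and Skil had 336, 351 and 307 and then 429, 409, 493 and 457. Smad7, the inhibitory Smad, also a target of the pathway, had 191, 189 and 181 reads with DMSO and 165, 146, 172 and 187 with purmorphamine. Those groups overlapped (-0.21, adjusted p = 0.100 from edgeR), and the call was lost without DMSO replicate 2 (adjusted p = 0.231), without purmorphamine replicate 6 (0.263) and with library totals alone (0.203). Of the others, Smad4, Smurf1, Smurf2 and Ppm1a rose by 0.12 to 0.29, and Tgif1, Tgif2, Ski and Nedd4l fell, with log2 fold changes from -0.82 to -0.14.

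Among 22 genes tested that TGF-beta is known to induce, 4 were higher, 13 lower and 5 not called (Col1a1, Fn1, Postn, Cdkn2b and Nox4). Over all genes tested, 62.5% were called, 31.4% higher and 31.1% lower. The list median was -0.18. Scaled by library totals alone, 6 were higher and 12 lower. Tgfbi, a secreted matrix protein gene named for its induction by TGF-beta, fell from 933, 996 and 1009 reads to 213, 245, 223 and 263 (log2 fold change -2.10, adjusted p = 3.38e-13 from edgeR). Other targets went up: Ctgf, encoding connective tissue growth factor, rose from 1848, 1718 and 1933 reads to 5480, 4880, 5999 and 6020 (1.56, adjusted p = 1.40e-11), and Klf10 (1.16) and Hmga2 (1.13), which encode nuclear proteins, rose too. Tgfb1i1, the last of the 4 higher genes, was at 0.14 (adjusted p = 0.135 from edgeR, exact permutation p = 0.2), and its groups overlapped. With single libraries left out, the target genes called higher ran from 3 (without DMSO replicate 2 or 4) to 5 (without purmorphamine replicate 5, 7 or 8). Contractile genes of the list fell, Tagln by 1.44 and Acta2 by 0.90 on the log2 scale, as did Lox (-0.82), encoding the enzyme that crosslinks collagen. Many of these genes also answer to other signals.

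Activins act through other receptors but the same Smads. Of the 8 genes of that branch that were tested, 1 was higher, 5 were lower and 2 were not called (Inha and Acvr2b), with a median of -0.15, against 31.4% higher and 31.1% lower over all genes. With library totals alone 3 were lower. Inhba, encoding the subunit of activin A, rose from 54, 47 and 53 reads to 151, 118, 133 and 137 (log2 fold change 1.34, adjusted p = 3.18e-07 from edgeR). Gdf11, encoding a ligand of the same receptors, fell from 914, 902 and 901 to 431, 494, 469 and 429 (-1.04, adjusted p = 3.35e-10). Inhbb had 124, 131 and 137 reads and then 114, 123, 111 and 124, groups that meet at 124 (-0.19, adjusted p = 0.137), and its call was lost when DMSO replicate 3 or 4 or purmorphamine replicate 5 or 7 was left out (adjusted p from 0.223 to 0.352) with DESeq2 (0.286), with library totals alone (0.261) and with no filter on low counts (0.211). The remaining 3, Acvr1b, Acvr2a and Fst, were at -0.18, -0.18 and -0.12.

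**Figure D4:**
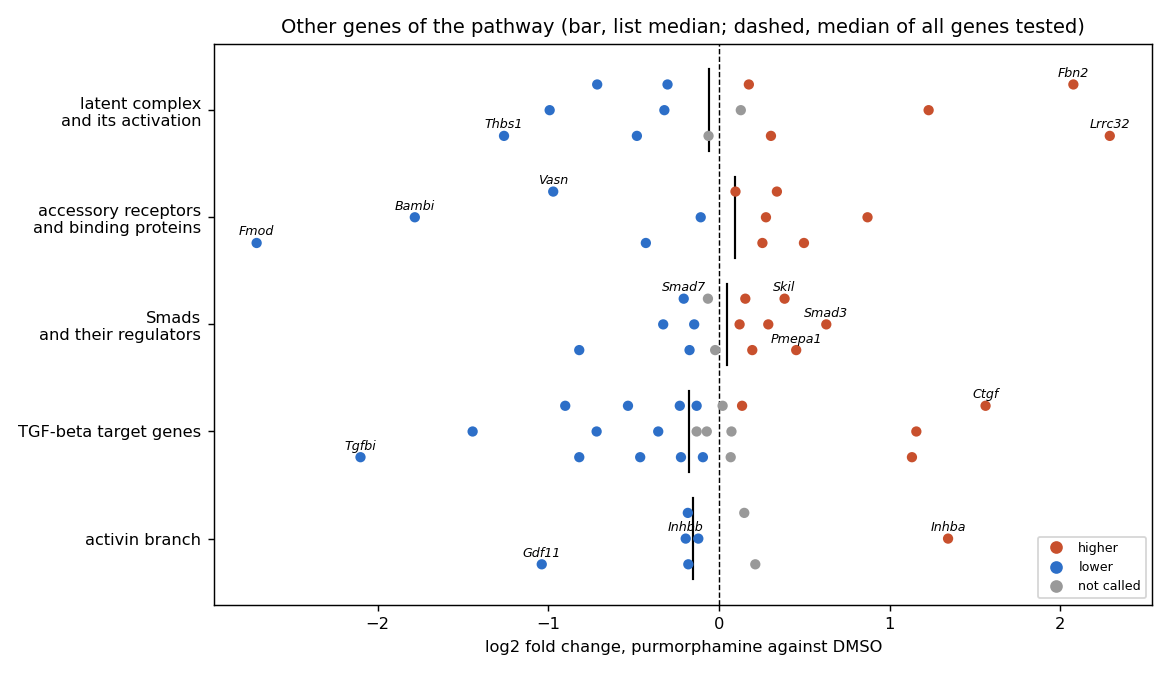
Log2 fold change with purmorphamine against DMSO (horizontal axis) for the tested genes of the 5 lists that are reported here, spread vertically for legibility. Colours give the call, short black bars the list medians (from -0.18 to 0.098) and the dashed line the median of all genes tested. Among the target genes shown, Tgfbi is at -2.10 and Ctgf at 1.56.

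By Pearson's r of log2 CPM (counts scaled to library size) over the 7 libraries, the 5 genes most like Ltbp1 among 10672 genes averaging 50 reads or more were Ptn (r = 0.9992), C3 (0.9991), Rrbp1 (0.9989), Aebp1 (0.9987) and Pcdhga9 (0.9984). These correlations share the 2 treatments as their main source of variance, and 932 genes had r of at least 0.95, so they are given as a description. Pcdhga9 shares exons with its neighbours in the protocadherin cluster, which makes its count uncertain.

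Totals were from 14337225 to 14342154 reads per library, and a gene with no read in a library may have had as many as 3 (0.209 CPM), for counting error only. Gli1, a target of Hedgehog signalling, had 7 to 12 reads with DMSO and 2522 to 3171 with purmorphamine. All 10 mesenchymal markers were in the table, with summed reads from 294087 to 301021 with DMSO and from 270462 to 290029 with purmorphamine. Of the 10, 5 were higher and 3 lower, against 31.4% and 31.1% of all genes tested, and 2 were not called. Their log2 fold changes ran from -0.96 (Vim) to 0.76 (Pdgfra). Leukocyte markers summed to at most 21 reads in any library (4 of 6 in the table, Ptprc at most 1). Of the epithelial markers 2 of 6 were in the table, and their sums, nearly all from Cdh1, were from 14 to 22 with DMSO and from 111 to 136 with purmorphamine. The 5 endothelial markers summed to between 781 and 821 with DMSO and between 1898 and 2154 with purmorphamine, nearly all from Tek, while Cdh5 was at 0 with DMSO and from 21 to 26 with purmorphamine, and Pecam1 (at most 5), Kdr (at most 4) and Emcn (at most 3) stayed near 0. The part of these markers in the changes above was not tested.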

How the data were processed

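RNA of 7 C3H10T1/2 samples was sequenced by the authors as single reads of 100 bases from stranded, ribosome-depleted total RNA. They resampled the reads to equal numbers per library and deposited the sense-strand counts per gene, as whole numbers. The submitters' processing notes name STAR 2.5.3a and mm9, and the annotation used for counting is not given in the sources used here. No per-sample column was left unused.

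Samples were grouped by their labels. From the counts, edgeR 4.0.16 (limma 3.58.1, R 4.3.3) was used with TMM factors, its default filter (minimum 10 counts, scaled to library size, total 15) and the quasi-likelihood test of purmorphamine against DMSO without covariates, adjusted after Benjamini-Hochberg over 12388 genes, and calls at 0.2, the study's threshold. The study used limma-voom, run here as an alternative. Exact permutation tests (two-sided, 35 assignments) used mean log2 of TMM-scaled counts with 1 added, and for ratios the log2 ratio. No library was a copy of another (mean chi-square per gene from 2.12 to 8.36 between libraries of 1 treatment). Positions and exon lengths are from GENCODE M21 (GRCm38) by Ensembl identifier, not from the mm9 coordinates of the table. Promoters are from RefSeq, matched by symbol for 7 of the 9 genes, with no entry for Tgfb3 or Tgfbr3.

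Genes named from each list were the 3 called genes with the largest absolute log2 fold change and a mean of at least 50 reads, plus Smad7 and Ctgf. A target gene that the rule also covers is counted in its list but not reported here. The members and lists were chosen with earlier results of these data known. Of 75 list genes, Mstn was not analysed here and 6 (Itgb6, Lrrc33, Acvrl1, Pthlh, Acvr1c and Fstl3) did not pass the filter. On simulated counts of 12289 genes with the same groups, edgeR recovered 83.3% of 60 genes changed by 0.5 on the log2 scale. It recovered 98.5% of 67 genes changed by 1 and 100% of 70 changed by 2, and 18.4% of its calls were false. Far fewer genes were changed there than the 62.5% called in the data, so these rates need not hold for the data. Alternatives were library totals or RLE factors in place of TMM factors, DESeq2 1.42.0, limma-voom, other filters, stricter thresholds and fits that each left out 1 library. Another length for shares, and the same alternatives for the lists, were added after the data had been seen.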

Additional observations from a re-analysis of the deposited data

How the results depend on the processing

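No paired analysis was run, since the labels name no pairs of libraries and no replicate number occurs in both groups. The 5 members with the larger changes, Tgfb2, Tgfb3, Tgfbr3, Ltbp1 and Ltbp3, held direction and call under all alternatives run but the fold threshold. Under other scaling, DESeq2, limma-voom or other filters, the same 4 members were higher and the same 3 lower. With library totals alone, higher genes were 59.5% of the calls, against 50.2%, and the median log2 fold change of all genes was 0.051, against 0.0038. By their construction, the stricter thresholds called fewer genes. A change of 1.5-fold left 977 higher and 936 lower genes, and among the members 0 higher and 1 lower (Ltbp1). An adjusted p under 0.05 left 2 members higher, since Tgfbr2 (0.084, adjusted p = 0.148 from edgeR) and Ltbp2 (0.11, adjusted p = 0.128) then missed it.

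With single libraries left out, members called higher ran from 2 (without DMSO replicate 2, where 3587 of 12531 genes tested were higher) to 4. Without purmorphamine replicate 6 the 4 were Tgfb3, Tgfbr1, Tgfbr2 and Tgfbr3, and 3961 of 12321 genes tested were higher. The log2 fold change of Tgfbr1 ran from -0.026 (without purmorphamine replicate 7) to 0.084 (without purmorphamine replicate 6), that of Tgfbr2 from 0.066 to 0.11, that of Ltbp2 from 0.067 to 0.15, and the log2 difference of the ratio of Tgfbr2 to Tgfbr1 from -0.013 to 0.14. The cause was not tested. Over all alternatives, the adjusted p of Tgfbr2 ran from 0.0259 to 0.370 and that of Ltbp2 from 0.0356 to 0.361. For shares among the latent binding proteins the longest coding transcript as the length gave differences in the same direction (-10.5 percentage points for Ltbp1, against -9.59).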
